A study of Mus musculus with 6 samples.

Results

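The genes described here are 10 marrow niche and trophic factors with their receptors: Hgf, Met, Hgfac, Kitl, Kit, Angpt1, Il7, Vcam1, Lepr and Nes. They were taken by gene symbol from a read count table of 17830 genes, in which all 10 have a row. They were measured by bulk RNA sequencing of cultured skull osteoblasts from mice aged 6 months, in 3 control and 3 APPswe libraries. Control mice carried mOCN-Cre and Ai9, and APPswe mice carried the TgAPPswe allele in addition, so both groups share the Cre and the reporter. In mOCN-Cre mice the recombinase is linked to the endogenous osteocalcin gene, Ai9 reports past Cre activity through the red protein tdTomato, and TgAPPswe is a transgene for human APP with the Swedish mutation that is switched on by the same Cre. Cells grew out of calvarial bone fragments in culture and were sorted for tdTomato, and the paper describes the mice as male. The labels do not say whether the libraries of a group came from separate animals, so the p-values measure the spread between these libraries.

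Marrow stromal cells, osteoblast-lineage cells and endothelial cells make factors that hold blood stem and progenitor cells in place and feed them. Hepatocyte growth factor (HGF, also called scatter factor) is secreted as an inactive chain, is cut by proteases such as the HGF activator encoded by Hgfac, and binds the receptor tyrosine kinase MET. Stem cell factor, encoded by Kitl, exists as membrane-bound and soluble forms and binds the receptor tyrosine kinase KIT of blood stem cells and mast cells. Angiopoietin 1 acts on the endothelial receptor TIE2, interleukin 7 supports developing lymphocytes, and VCAM1 holds leukocytes through the integrin VLA-4. The leptin receptor and the intermediate filament protein nestin are widely used to mark stromal cells around marrow vessels.

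The libraries held between 17263757 and 18398392 counts, at which a floor of 3 counts equals 0.167 to 0.173 CPM (counts scaled by each library's TMM-normalized total), which covers counting error only. Control replicate 2 stood apart from the other 5 libraries. It held 2 counts summed over 4 Y-linked genes (Uty, Kdm5d, Eif2s3y and Ddx3y), against 2257 to 3406 in the others, and 1 count of the osteocalcin gene Bglap against 115 to 204. It also had 1 count of the endothelial gene Pecam1, against 827 and 895 in control replicates 1 and 3, and was below both for 8 of 10 endothelial markers, but it was above both for Kdr and Vwf. The Y-linked counts of this library are at odds with the paper's description of the mice as male, and the reason was not tested. The result of each of the 10 genes is therefore given with and without this library. As to the label, the collagen gene Col1a1 was present in all libraries (4844 ± 816 CPM in control and 3982 ± 343 CPM in APPswe, SD, n = 3 each). Of 12 osteoblast markers, control replicate 2 was the lowest of the controls for 8 and the highest for 4. It had 3 counts of Ibsp, against 1468 and 1371 in control replicates 1 and 3. Genes of macrophages were also present, with Csf1r at 986 ± 326 CPM in control and 937 ± 2.23 CPM in APPswe, and Lyz2 at 13550 ± 3335 and 7622 ± 411 CPM (SD, n = 3 each). App, the mouse counterpart of the transgene, differed by -0.11 on the log2 scale (edgeR adjusted p = 0.507), and human APP reads were not counted apart from it.

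Upstream sequence was available for 7 of the 10 genes, and it is shown for Hgf, the ligand that was called higher. The 250 bases before the first of its 2 starts lie at chr5:16553245-16553494 on the plus strand (RefSeq, GRCm38.p6). Capitals would mark matches on either strand to the letters of a TATA box (TATAAA), a GC box (GGGCGG), an E-box (CACGTG) or a CCAAT box.
Hgf: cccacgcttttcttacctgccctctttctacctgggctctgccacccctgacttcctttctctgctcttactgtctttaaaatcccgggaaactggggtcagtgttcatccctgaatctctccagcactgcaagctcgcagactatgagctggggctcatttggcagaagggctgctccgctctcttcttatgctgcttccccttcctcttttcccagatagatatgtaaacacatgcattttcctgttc
The Hgf stretch held none of the 4 motifs, and neither did that before the second start, which lies inside the gene. For Kitl the table uses a start within the gene, so that 206 of the 250 bases before it (chr10:100015571-100015820, plus strand) lie inside the annotated gene and are not shown. They held TATAAA at position -25, counted back from -1 just before that start, and GGGCGG at -143, -45 and -41, the last 2 overlapping. Among 32851 promoters of the same length, 12.4% held TATAAA, 32.7% GGGCGG, 6.02% CACGTG and 33.8% CCAAT. G and C made up 69.2% of the Kitl stretch and 50.8% of the Hgf stretch, against a median of 52.4%.

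Between the genotypes, Hgf rose in APPswe libraries, and Kitl and Il7 fell. Genes were called higher or lower where edgeR's quasi-likelihood test, run on 13484 genes, gave an adjusted p up to 0.05 and the log2 fold change was 1 or more in size. Of the 10 genes, 9 had counts and 8 passed the filter on low counts. Among these 8, 1 was called higher, where 3.74% of all genes tested were, and 2 were called lower, where 3.60% were. The values of the genotypes did not overlap for 6 of the 8 genes, as for 45.0% of all genes tested, with 3 higher (22.8% of all genes) and 3 lower (22.2%). Their median log2 fold change was -0.37, against -0.0033 over all genes tested. Without control replicate 2, 9 of the genes were tested, 1 was called higher (4.87% of all genes) and 3 lower (6.58% of all genes), and their median was -0.70 against 0.015 over all genes. Kit was among the 3 called lower, and it passed the filter only through control replicates 1 and 3, where it was highest.

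**Figure D1:**
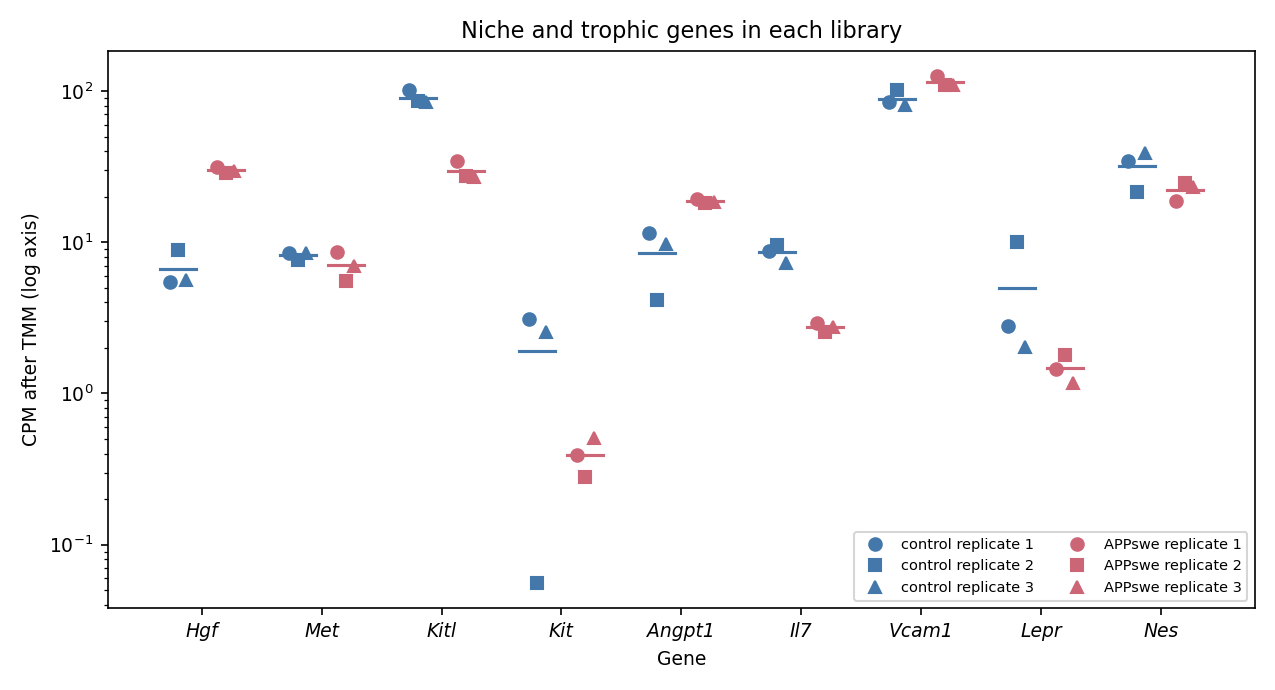
CPM after TMM normalization (log axis) of the 9 genes with counts, with a point for each library and a line at each group's mean (n = 3). The APPswe points of Hgf lie above all control points and those of Kitl and Il7 below, while control replicate 2 (blue square) is the lowest point for Kit and Angpt1 and the highest for Lepr and Il7.

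Hgf (NCBI gene 15234, chr5:16553495-16619439, plus strand) was at 5.49, 8.88 and 5.64 CPM in control replicates 1, 2 and 3. It was at 31.4, 28.7 and 29.8 CPM in APPswe replicates 1, 2 and 3. The genotypes were far apart, and the highest control value belonged to the replicate that stood apart. Hgf rose 4.49-fold, or by 2.17 ± 0.20 (standard error) on the log2 scale (edgeR adjusted p = 0.00122). Without control replicate 2 the rise was 2.43 ± 0.11 on that scale (edgeR adjusted p = 3.13e-08). A gene model on the same strand, Gm43489, shares 6.74% of the annotated exon bases of Hgf. In bulk RNA, more cells that make a transcript and more transcript per cell cannot be told apart, here and for each gene below.

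Met, which encodes the HGF receptor (NCBI gene 17295, chr6:17463349-17573980, plus strand), was at 8.49, 7.64 and 8.52 CPM in control libraries. In APPswe libraries it was at 8.58, 5.57 and 6.91 CPM. The ranges overlapped, with the highest and the lowest of all 6 values both in APPswe libraries. The difference was -0.23 ± 0.19 (standard error) on the log2 scale (edgeR adjusted p = 0.413), and -0.27 without control replicate 2 (edgeR adjusted p = 0.200). Ligand and receptor transcripts were therefore both present, and the ligand alone was called. Hgfac (NCBI gene 54426, chr5:35041509-35048461, plus strand) had 0 counts in all 6 libraries, which allows up to 0.173 CPM in any one of them.

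Kitl (NCBI gene 17311, chr10:100015615-100100416, plus strand) was at 101, 85.8 and 84.5 CPM in control libraries. It was at 34.4, 27.3 and 27.0 CPM in APPswe libraries. The groups were widely separated, with the highest APPswe value well below the lowest control value. Kitl fell 3.06-fold, a log2 change of -1.61 ± 0.13 (standard error, edgeR adjusted p = 0.000851). Control replicate 2 lay between the other control libraries for this gene, and without it the log2 fold change was -1.64 (edgeR adjusted p = 8.97e-07). The counts are per gene, so the membrane-bound and soluble forms of stem cell factor were not measured apart.

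Kit, which encodes the stem cell factor receptor (NCBI gene 16590, chr5:75574987-75656722, plus strand), had 54, 1 and 45 counts in control replicates 1, 2 and 3. It had 7, 5 and 9 counts in APPswe libraries. Control replicate 2 was the lowest of the 6 libraries, and control replicates 1 and 3 were the highest. The gene did not pass the filter, and in a fit without a filter the log2 difference was -2.25 ± 1.00 (standard error, edgeR adjusted p = 0.175). With control replicate 2 left out it passed the filter and was called lower, at -2.83 ± 0.29 (edgeR adjusted p = 1.77e-05). It passed the filter there only through control replicates 1 and 3, where it was highest, so the filter itself favoured a lower call. Of 10 endothelial markers, 8 were, like Kit, lower in control replicate 2 than in the other control libraries, and 2 were higher. Cdh5, the endothelial cadherin, had 1009, 6 and 1126 counts in control and 32, 22 and 26 counts in APPswe replicates. Kdr, a VEGF receptor gene, ran the other way in control replicate 2, with 188, 453 and 224 counts in control and 51, 52 and 57 in APPswe replicates, as did Vwf (661, 979 and 829 against 236, 259 and 257 counts). Of the mast cell and blood progenitor list, Cpa3, Mcpt4, Cma1 and Fcer1a of mast cells had at most 3 counts in any library and Flt3 had none, while the less specific Gata2 had 67 to 164 counts and Cd34 fell from 88.3 ± 4.92 to 42.9 ± 3.32 CPM (SD, n = 3 each). The part of endothelial cells in the Kit values was not tested.

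Il7 (NCBI gene 16196, chr3:7572028-7613760, minus strand) was at 8.78, 9.61 and 7.28 CPM in control libraries. In APPswe libraries it was at 2.92, 2.56 and 2.75 CPM. All APPswe values lay below the control range, and they were close together. Il7 fell 3.11-fold, a log2 change of -1.64 ± 0.17 (standard error, edgeR adjusted p = 0.00175), and of -1.54 without control replicate 2 (edgeR adjusted p = 1.60e-05). The transcripts of its receptor were also measured, with Il7r at 34.8 ± 10.3 CPM in control and 31.7 ± 3.71 CPM in APPswe libraries (SD, n = 3 each, edgeR adjusted p = 0.694).

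The 6 libraries carry names in 2 styles, with a hyphen (control replicates 1 and 2, APPswe replicate 1) or without one (control replicate 3, APPswe replicates 2 and 3). The name of control replicate 2 also holds the letter S where all the others hold L, and what these letters stand for is not known here. The deposited FPKM table leaves blank 397 genes for the first and 716 for the second. Within the libraries named with and without a hyphen, the log2 ratio of mean CPM (0.1 added), APPswe over control, was 2.11 and 2.35 for Hgf. It was -1.44 and -1.63 for Kitl, and -1.62 and -1.42 for Il7. The sign differed for Met, at 0.088 and -0.44, and Lepr was at -2.06 and -0.43. For Lepr the control mean with a hyphen includes control replicate 2, at 10.1 CPM against 2.77 CPM in control replicate 1. All of these ratios rest on 3 libraries each and have no test.

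Angpt1 (NCBI gene 11600, chr15:42424667-42676977, minus strand) encodes the ligand that keeps vessels quiescent through TIE2. It was at 11.5, 4.16 and 9.76 CPM in control replicates 1, 2 and 3. It was at 19.3, 18.2 and 18.5 CPM in APPswe replicates. All APPswe values lay above all control values, and control replicate 2 was the lowest. The gene narrowly missed the call, at a log2 difference of 1.14 ± 0.34 (standard error, edgeR adjusted p = 0.0535), and DESeq2 called it (adjusted p = 0.00559). Without control replicate 2 the adjusted p was 0.000112, but the log2 fold change of 0.82 was under the limit of 1. An antisense gene, Gm17473, shares 14.2% of the annotated exon bases of Angpt1 (1.85% for Gm16685 and Il7, 0.688% for Gm43109 and Vcam1), and the strand setting of the counting is not given in the sources used here.

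Vcam1 (NCBI gene 22329, chr3:116110020-116129688, minus strand) was at 84.0, 101 and 80.8 CPM in control libraries. It was at 125, 109 and 109 CPM in APPswe libraries. The groups did not overlap, with control replicate 2 nearest to the APPswe values. The log2 difference of 0.37 ± 0.11 (standard error, edgeR adjusted p = 0.0573) did not pass the test. Without control replicate 2 it was 0.48 with an edgeR adjusted p of 0.000618, still under the limit on the fold change.

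Lepr (NCBI gene 16847, chr4:101717137-101815352, plus strand) was at 2.77, 10.1 and 2.03 CPM in control replicates 1, 2 and 3. In APPswe libraries it was at 1.46, 1.78 and 1.18 CPM. Control replicate 2 was 4.19 times the mean of the other control libraries. With all libraries the log2 difference of -1.75 ± 0.63 (standard error) did not pass edgeR's test (adjusted p = 0.0934), while DESeq2 called it lower (adjusted p = 0.0264). Without that library it was -0.70 ± 0.25 (edgeR adjusted p = 0.0388), so the size of this difference rested on 1 library. Another stromal niche gene went the opposite way in that library, since Cxcl12 had 959 counts there and 13994 and 15265 in control replicates 1 and 3. Stromal markers were split, as that library was the highest of the controls for 4 of 10, Lepr included, and the lowest for 5.

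Nes (NCBI gene 18008, chr3:87971093-87980451, plus strand) was at 34.4, 21.6 and 39.1 CPM in control replicates 1, 2 and 3. It was at 18.7, 24.5 and 23.2 CPM in APPswe replicates. The groups overlapped because control replicate 2 lay within the APPswe range. A log2 difference of -0.52 ± 0.23 (standard error, edgeR adjusted p = 0.149) did not pass the test. Without control replicate 2 the adjusted p was 0.000399 at a log2 fold change of -0.73, again under the limit on its size.

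**Figure D2:**
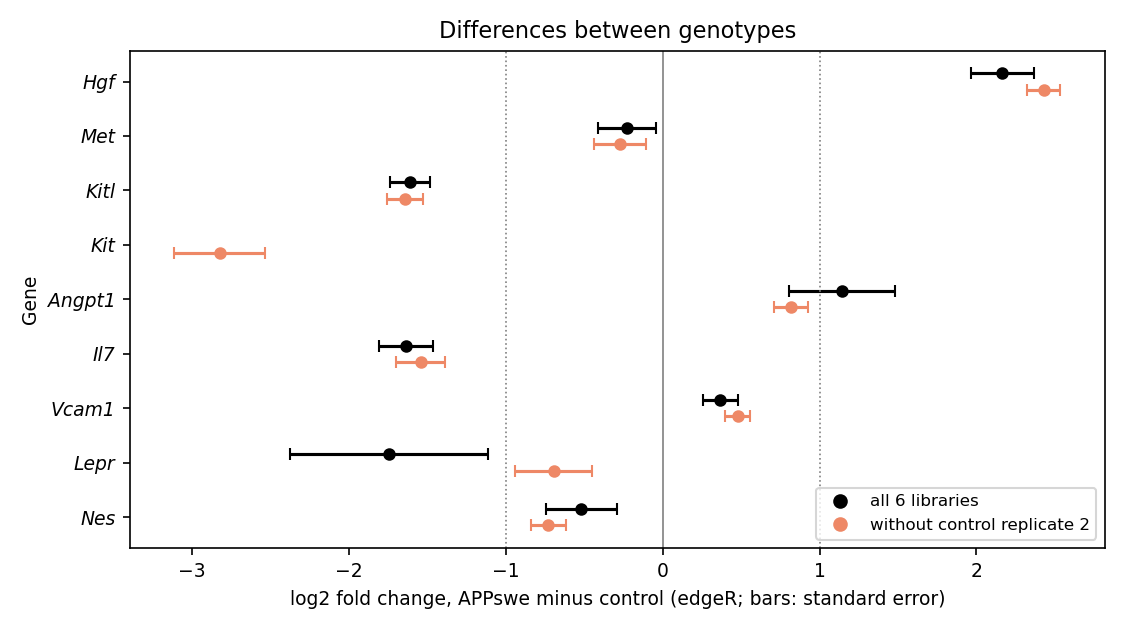
Log2 fold change of APPswe minus control from edgeR (points, with bars of 1 standard error) for all 6 libraries (black) and without control replicate 2 (orange), with dotted lines at the limits of -1 and 1. The 2 estimates lie close together for Met, Kitl, Il7 and Vcam1. That of Hgf moves from 2.17 to 2.43 and that of Lepr from -1.75 to -0.70, and Kit has an estimate only without control replicate 2.

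Levels were compared between genes with the deposited FPKM values, which are scaled by transcript length. In control libraries the highest mean was that of Vcam1, at 27.5 ± 3.56 FPKM (SD, n = 3), followed by Kitl at 16.99 ± 1.83 and Nes at 5.26 ± 1.47 FPKM. These 3 did not overlap with their neighbours in the order. Il7, Hgf, Angpt1, Met, Lepr and Kit followed in that order, from 3.20 ± 0.454 to 0.377 ± 0.323 FPKM, and each overlapped with the next. In APPswe libraries Vcam1 was again first, at 37.4 ± 3.44 FPKM, and Hgf came next, at 13.0 ± 0.777 FPKM (SD, n = 3). Kitl (5.85 ± 0.886 FPKM) and Angpt1 (5.22 ± 0.191 FPKM) overlapped, as did Met (1.15 ± 0.259 FPKM) and Il7 (1.07 ± 0.0656 FPKM). Hgf thus stood in place 5 in control and in place 2 in APPswe libraries, while Kit was the lowest gene with counts in both.

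**Figure D3:**
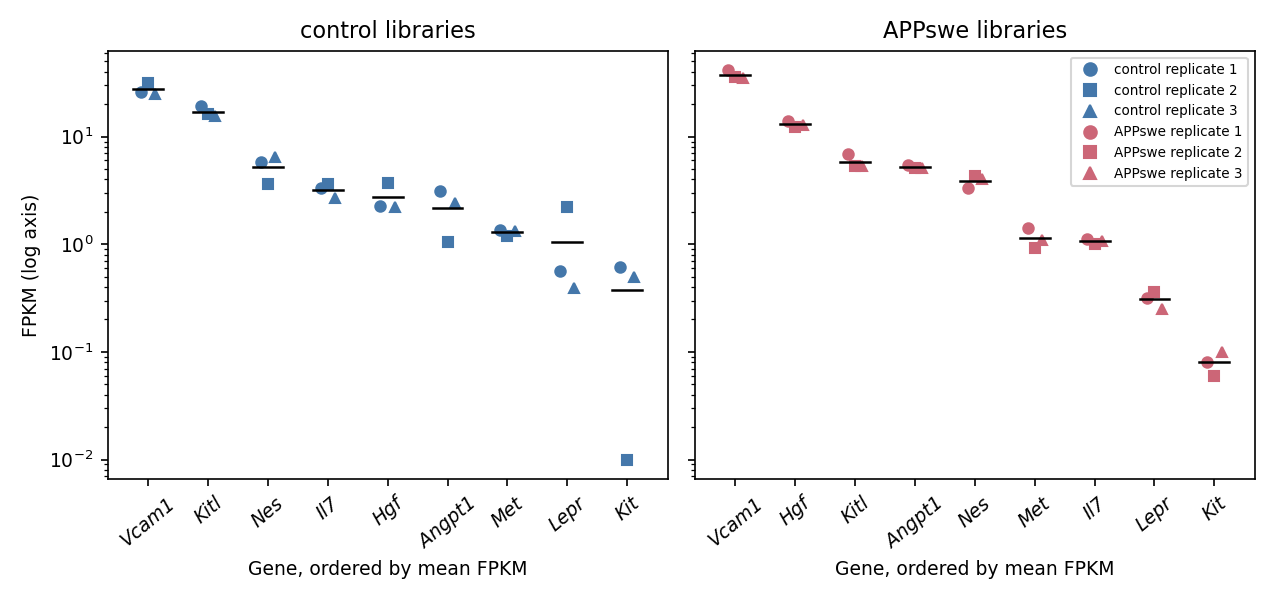
Deposited FPKM values (log axis) of the 9 genes with counts, ordered by the mean of each genotype (black line, n = 3) with a point for each library. Hgf moves from place 5 in control to place 2 in APPswe libraries, and Kitl from place 2 to place 3.

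The other genes of these pathways were taken from 7 lists of 102 genes, of which 94 were tested. Of these, 6 were called higher (6.38%, against 3.74% of all genes tested) and 8 lower (8.51%, against 3.60%). Their median log2 fold change was -0.087. Without control replicate 2, 9 of 95 tested were called higher, where 4.87% of all genes were, and 16 lower, where 6.58% were.

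Around HGF, 18 genes for its activators, inhibitors and signalling partners were tested, and St14 alone was called. St14, which encodes the protease matriptase that can activate HGF, was at 11.8 ± 3.58 CPM in control and 2.50 ± 0.0797 CPM in APPswe libraries (SD, n = 3 each). It fell by 2.24 on the log2 scale (edgeR adjusted p = 0.00253). Plau, which encodes urokinase, was at 161 ± 45.6 and 95.5 ± 1.97 CPM (SD, n = 3 each) and passed the adjusted p of edgeR (0.0421) but not the fold limit. Spint1, whose product inhibits HGF-activating proteases, had 25, 235 and 19 counts in control and 167, 147 and 178 in APPswe replicates. It was called higher without control replicate 2 (log2 fold change 2.87) and not with all libraries (edgeR adjusted p = 0.537). Spint2, which encodes a related inhibitor, had 39, 8 and 51 counts in control and 13, 25 and 17 in APPswe replicates, and was called lower without control replicate 2 (log2 fold change -1.31) but not with all libraries (edgeR adjusted p = 0.365).

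In the stem cell factor and KIT list, 2 of 17 genes were called higher and 1 lower. Mmp9, a metalloproteinase that can release soluble stem cell factor, rose from 2.22 ± 1.49 to 126 ± 2.93 CPM (SD, n = 3 each). Mmp9 is also on the osteoclast marker list, where Acp5, Oscar and Ocstamp were called higher too. Socs1, a cytokine signalling inhibitor, rose by 1.13 and Grap, an adaptor protein gene, fell by 1.32 on the log2 scale. Adam17, which encodes another sheddase, was at 147 ± 33.9 and 138 ± 12.5 CPM (SD, n = 3 each, edgeR adjusted p = 0.724).

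In the angiopoietin and TIE list, 2 of 8 genes were called, both lower. Angpt2, which encodes the antagonist of angiopoietin 1, had 768, 31 and 835 counts in control and 32, 40 and 43 in APPswe replicates. It fell by 3.85 on the log2 scale (standard error 1.06, adjusted p = 0.0427 from edgeR), although control replicate 2 lay below all APPswe libraries. Ptprb, an endothelial phosphatase gene, fell by 3.68 on the log2 scale, from 5.33 ± 2.14 to 0.411 ± 0.142 CPM (SD, n = 3 each). The receptor genes Tek and Tie1 were called lower without control replicate 2. Tie1 had 144, 0 and 181 counts in control and 6, 9 and 5 in APPswe replicates, and did not pass the filter with all libraries. Without control replicate 2, Tie1 passed it only through control replicates 1 and 3, where its counts were highest.

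Among 11 genes of the IL-7 list, Socs1 was called higher and Bcl2, a survival factor gene downstream of the receptor, fell by 1.11 on the log2 scale. Of the 6 genes tested as VCAM1 receptors and partners and the 11 of the leptin receptor list, 0 were called by edgeR or DESeq2 with all libraries, and 1 and 4 had an unadjusted p under 0.05 in edgeR. A low p was common in that fit, as 3036 of the 13484 genes tested had an adjusted p up to 0.05. Itga4, the VLA-4 alpha chain gene, was at 63.6 ± 13.6 and 61.5 ± 3.27 CPM (SD, n = 3 each). Of 26 other marrow niche signals, Ptn, Il6, Angptl4 and Vegfa were called higher, and Spp1, Ccl2 and Grem1 lower. Spp1, the osteopontin gene, fell from 8171 ± 1804 to 3569 ± 112 CPM (SD, n = 3 each), and Ccl2, a monocyte chemoattractant gene, fell from 172 ± 7.69 to 66.5 ± 2.08 CPM (SD, n = 3 each). Csf1, the growth factor gene of macrophages, was at 1051 ± 83.8 and 754 ± 29.5 CPM (SD, n = 3 each) and passed the adjusted p (0.0116, edgeR) but not the fold limit.

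**Figure D4:**
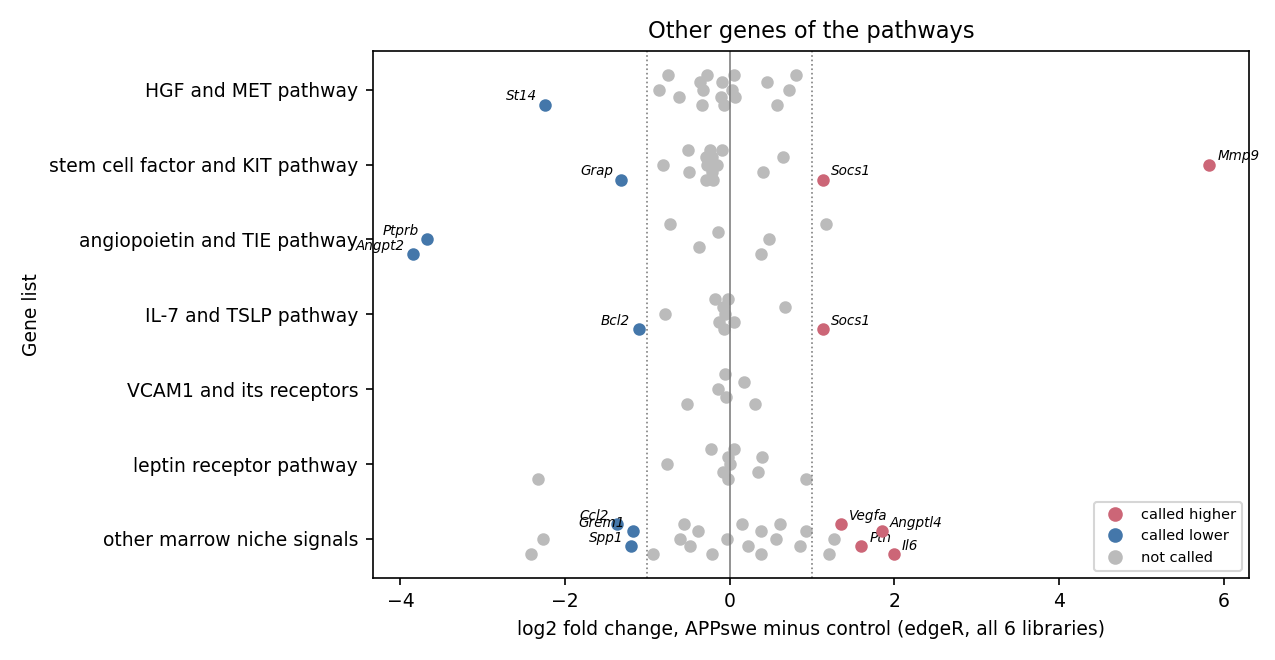
Log2 fold change of APPswe minus control from edgeR with all 6 libraries for the 94 tested genes of 7 pathway lists, with genes called higher in red, genes called lower in blue and the others in grey. The called genes are named, and the 6 higher and 8 lower genes sit outside the dotted limits of -1 and 1.

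Marker lists of other cell types also differed between the groups. Of 10 tested skeletal muscle markers, 10 were called higher, and the summed level of the list was 2.71 to 12.8 CPM in control and 185 to 190.1 CPM in APPswe libraries. Of 8 tested osteoclast markers 4 were called higher, at sums of 214 to 346 and 772 to 788 CPM. The endothelial sum was 84.0 to 288 CPM in control and 28.5 to 31.1 CPM in APPswe libraries, with 2 of 8 markers called lower, and 10 of 10 without control replicate 2. Of these 10, Tie1 and Cldn5 passed the filter only through control replicates 1 and 3, where they were highest. The macrophage sum was 17924 to 24922 CPM and 12603 to 13551 CPM, with 1 of 13 markers called, Aif1, which was higher, while without control replicate 2 Lyz2 alone was called, which was lower. The osteoblast sum was 20392 to 21416 CPM and 16339 to 17212 CPM, with 1 of 12 called higher (Sp7) and 1 lower (Spp1), and 1 and 4 without control replicate 2. Spp1 alone fell from a mean of 8171 to 3569 CPM, and the median log2 fold change of the 12 markers was -0.12. Control replicate 2 was the lowest of the controls for 8 of the 12 and the highest for 4, although its sum was like theirs. The marrow stromal sum, whose list holds Lepr itself, was 517 CPM in control replicate 2 and 1232 to 1342 CPM in the other 5 libraries. Cxcl12 was the largest part of the sum in those 5. It was at 53.9 CPM in control replicate 2, against 808 and 862 CPM in control replicates 1 and 3. Control replicate 2 was the lowest of the controls for 5 of the 10 stromal markers and the highest for 4. Between the genotypes the 10 tested stromal markers went both ways, with Pdgfra and Ebf1 called higher and Grem1 and Esm1 lower (2 higher and 3 lower without control replicate 2). The Schwann and neural sum, whose list holds Nes, was 108 to 181 CPM and 72.9 to 89.4 CPM, with 1 of 7 tested markers called lower (Ngfr) and 6 called lower without control replicate 2. Gfap, among these 6, also passed the filter only through control replicates 1 and 3. The pericyte and smooth muscle sum was 1344 to 2453 CPM and 2680 to 2786 CPM, with 1 of 9 tested called higher (Abcc9, at 6 to 22 counts) and, without control replicate 2, 3 called higher and 1 lower. Most of this sum came from Acta2 (947 ± 500 and 1644 ± 52.9 CPM) and Tagln (422 ± 159 and 785 ± 4.82 CPM, SD, n = 3 each). The tested markers of this list did not rise together, as their median log2 fold change was -0.10. The mast cell and blood progenitor sum, whose list holds Kit, was 92.6 to 100 CPM and 48.0 to 54.8 CPM. In it 1 of 2 tested markers was called lower (Cd34), and 1 was called higher and 2 lower without control replicate 2. The B and T cell sums overlapped, at 27.8 to 47.6 and 31.2 to 38.1 CPM. The part of these cell types in the values of Hgf, Kitl, Il7 and the other genes was not tested.

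**Figure D5:**
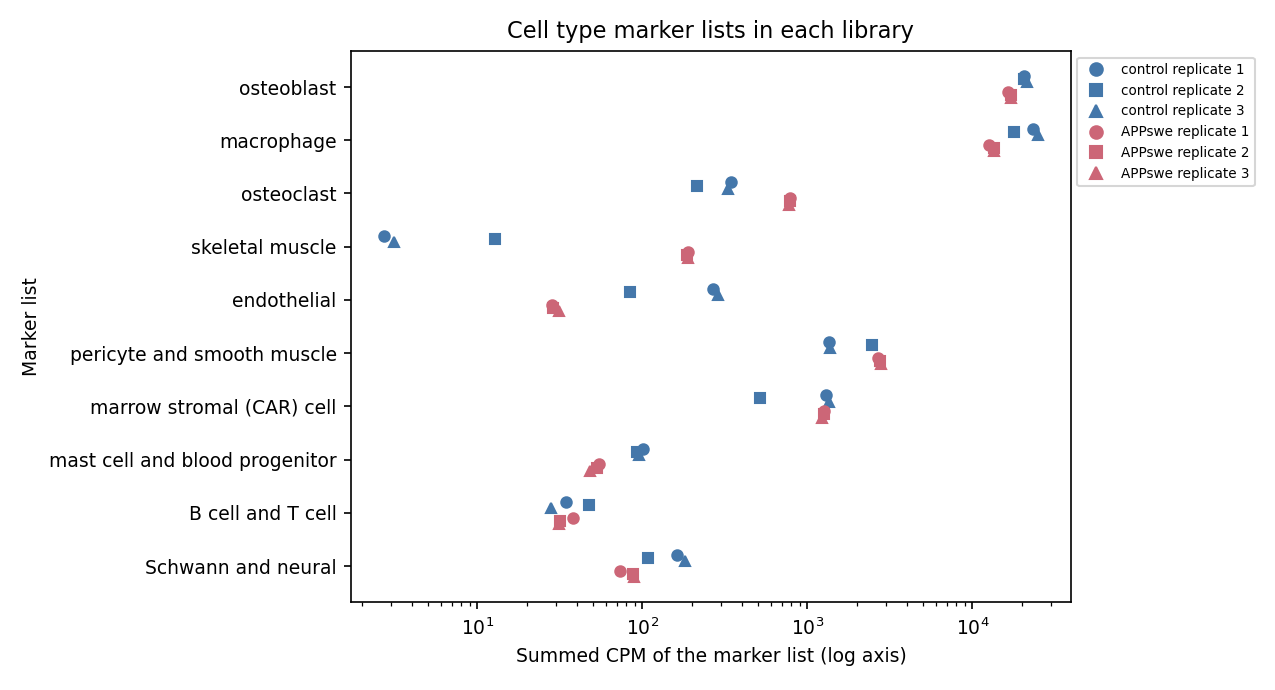
Summed CPM (log axis) of 10 cell type marker lists, with a point for each library. The skeletal muscle, osteoclast, and pericyte and smooth muscle sums are higher in all 3 APPswe libraries than in any control library. The endothelial, macrophage, osteoblast, Schwann and neural, and mast cell and blood progenitor sums are lower in all 3. The stromal sum of control replicate 2 lies apart from the other 5, in which Cxcl12 is the largest part of that sum.

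As a description over the 6 libraries, which fall into 2 genotype groups, the genes whose log2(CPM + 0.1) was most like that of Hgf among 12335 genes were Ttn and Myh1, of muscle fibres, and the chemokine receptor gene Ccr1 (Pearson's r from 0.9993 to 0.9998). For Kitl they were Cers2, Nostrin and Lipa (r from 0.9981 to 0.9984). Many genes followed the same split, since 557 genes had r above 0.95 with Hgf and 531 with Kitl.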

How the data were processed

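The authors sequenced the libraries on the DNBseq platform and deposited unnormalized read counts per gene, together with FPKM values rounded to 2 decimals, with blank cells taken as 0. The authors also deposited log2 fold changes and p-values from a comparison of their own, which were not used here. The submitters' processing notes name GRCm38, and the aligner and counting tool are not given in the sources used here. Positions and upstream sequences came from RefSeq tables of GRCm38.p6 and exon overlaps from GENCODE, and IDs of all 10 genes matched.

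Groups and replicate numbers came from the sample titles. Genotypes were compared on the counts using edgeR 4.0.16 in R 4.3.3 (TMM, filterByExpr, quasi-likelihood test without a covariate, Benjamini-Hochberg adjustment over 13484 genes). The standard error is the log2 fold change over the square root of F. In simulated data for this comparison, edgeR called 185 of 200 genes changed by 2 on the log2 scale, and 8 unchanged genes, of 13496 tested. The changed genes had a mean above 2 CPM, and no simulated library stood apart as control replicate 2 does. These numbers therefore do not carry over to low genes such as Kit, or to the effect of that library. DESeq2 1.42.0 and limma 3.58.1 on log2(FPKM + pseudocount) were alternatives.

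Every pair of libraries within a group was further apart than counting error alone, by a chi-square per degree of freedom. This value was lowest for APPswe replicates 2 and 3, at 1.57. It was 7.10 and 7.60 for the pairs with APPswe replicate 1, and 5.94 for control replicates 1 and 3. For the pairs with control replicate 2 it was 72.9 and 77.2. All libraries were kept as replicates. Whether APPswe replicates 2 and 3 are independent was not tested. If they are not, the APPswe spread behind the standard errors and p-values is too small. The genes named are the 10 chosen, called genes of the pathway lists, and for Hgf and Kitl the 3 genes most correlated. Plau, Spint1, Spint2, Adam17, Tek, Tie1, Il7r, Itga4, Csf1, Cxcl12 and the single cell type markers were named after their values were seen. The genes and lists were chosen with earlier results of these data known.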

Additional observations from a re-analysis of the deposited data

How the results depend on the processing

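None of the 8 tested genes changed its sign in any of 17 tested alternatives, though Met did in the untested ratio within hyphenated library names (0.088). The alternative at an adjusted p alone reuses the main fit and so could not change a sign. Hgf, Kitl and Il7 were called in each of the 17. Their log2 fold changes lay between 1.93 and 2.43, between -1.73 and -1.40, and between -1.75 and -1.01. The number called higher was 2 with DESeq2, without TMM and with limma on log2(FPKM + 1), since Angpt1 was added. Lepr, with between -2.12 and -0.55, was called with DESeq2 alone. With single libraries left out, 5 to 16 pathway genes were called lower, and over all genes 281 to 670 were called higher and 230 to 905 lower. The largest numbers were those without control replicate 2. At an adjusted p alone, 14 pathway genes were higher and 20 lower, and 1414 and 1622 of all genes. A filter of 10 counts in every library left 320 genes higher. Limma on log2(FPKM + 1) called 322 genes higher and 186 lower (main: 504 and 486) and 4 pathway genes lower, and without a filter 294, 161 and 4. With a pseudocount of 0.1 it called 277 genes lower and 5 pathway genes lower. The causes were not tested. Same-numbered replicates shared only a number (correlations of their deviations 0.084, -0.043 and 0.19). With the replicate number as a block, 708 genes were called in place of 990, and 5 pathway genes were lower. At these depths Kit, at 1 to 54 counts, and Hgfac limit what can be shown. Ratios within the library name styles were chosen after seeing the data.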
